A study of Mus musculus with 4 samples.

Results

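Long noncoding RNAs (lncRNAs) named in earlier work on the heart or on nuclear architecture were examined on 4 single-colour microarrays of mouse heart. The genes were Mhrt, H19, Meg3, Malat1, Neat1 and Miat, and their probes were those whose name on the array was a RefSeq or Ensembl transcript of the gene. This gave 6 of the 55681 probes other than controls, for 4 of the 6 genes: 3 for Meg3 and 1 each for Mhrt, Malat1 and Neat1. The array named 21740 genes in this way. A further 13 probes carried a gene's symbol or a RefSeq synonym instead of a transcript, namely 5 for H19, 5 for Neat1 and 3 under the synonym NEAT2 for Malat1, and they are described as an addition to the 6. No probe of Miat was found by either route. Of 32342 probes named by a RefSeq or Ensembl transcript, 2840 had an accession that none of the tables used here held and were left unnamed, so further probes of these genes, H19 included, may be among them. Each of these probes had 1 spot on each array.

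The hearts came from male C57BL/6J mice without any genetic change, after sham surgery or transverse aortic constriction (TAC), an operation that narrows the aorta and loads the left ventricle. The 4 groups were sham and TAC at 2 weeks, labelled as 10 weeks of age, and sham and TAC at 8 weeks, labelled as 16 weeks of age, although the methods give a different age at surgery. Each group was 1 array carrying RNA mixed from several mice, so the spread between mice was not measured, no p-value was computed, and every ratio compares 1 pool with 1 other. All 4 arrays lay on 1 slide and in 1 scan. A probe is called measured on an array where it stood well above background, which held for 54.7% to 58.5% of probes, and no spot was saturated. Levels are log2 processed signal minus the log2 of the array's 75th percentile, so a level of 0 is the 75th percentile, and levels of different probes are not compared. Probes printed in several spots gave the spot error: between any 2 of their spots the log2 ratio had an SD of 0.115 for measured probes at a level of -2 or higher and of 0.284 below it. This covers spot-to-spot error only. The tissue label fitted the heart muscle markers, of which 12 of 12 were measured on all 4 arrays. Of 7 fat markers, 5 were well above background on no array, Adipoq, Plin1 and Ucp1 among them, and 2 were measured on all 4, Cidea at a level of 5.35 on the 2-week sham array. Of 7 skeletal muscle markers, 3 (Myh1, Myh2 and Myh4) were dim on every array and 4 were measured on all. Of 8 markers of nerve and glia, only Rbfox3 was dim, and the other 7 were measured on all 4 arrays, Snap25 at a level of 7.07 on the 2-week sham array.

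lncRNAs are transcripts that act as RNA and are not translated. Mhrt is made in heart muscle from the myosin heavy chain locus, antisense to Myh7, and is known to bind the chromatin remodeller Brg1 (Smarca4). H19 and Meg3 are imprinted transcripts of the maternal chromosome, abundant before birth, and H19 is also the precursor of miR-675. Neat1 is the scaffold of paraspeckles, nuclear bodies that retain RNA and proteins, and Malat1 lies in nuclear speckles, which store splicing factors. Miat is a nuclear lncRNA known to bind splicing factors.

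Mhrt lies at chr14:54968787-54974349 of GRCm38.p6 on the plus strand, with 5 exons, 769 bases from the start of Myh6 and overlapping Myh7, both of which are on the minus strand. Of the 828 bases of its RefSeq transcript, 463 (55.9%) face exons of Myh7, and 4 of the 5 exons lie within the Myh7 gene. The position and strand of the Mhrt probe within this transcript were not given in the sources used here. The 300 bases around the start of Mhrt (RefSeq, GRCm38.p6, chr14:54968537-54968836, plus strand, from 250 bases before the start to 50 after it) are shown because Mhrt had the largest fall at 8 weeks among the 18 measured lncRNA probes. Capitals mark a match to CATTCC, read here on the minus strand as GGAATG, and a CAGCTG, which reads the same on both strands.

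Mhrt promoter: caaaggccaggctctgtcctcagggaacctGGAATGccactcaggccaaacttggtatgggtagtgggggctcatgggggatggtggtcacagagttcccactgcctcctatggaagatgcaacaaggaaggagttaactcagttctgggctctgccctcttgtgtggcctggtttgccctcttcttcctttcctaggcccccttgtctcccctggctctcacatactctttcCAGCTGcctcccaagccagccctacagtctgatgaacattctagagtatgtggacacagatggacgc

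CATTCC is the core of the M-CAT element and CAGCTG a form of the E-box, both familiar from muscle promoters. The search covered both strands, and the 2 motifs do not overlap. The CATTCC match began 220 bases and the CAGCTG match 17 bases before the start, and 14.7% and 16.3% of all 32851 RefSeq promoters of this length held at least 1 such match. This window held no TATAAA, which 13.6% of all promoters held, no GATA, held by 57.9%, and no CArG box, held by 1.63%.

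H19 lies at chr7:142575530-142578146 on the minus strand, 72621 bases from Igf2, and its exon 1 holds miR-675. The mature miR-675 sequences (RefSeq, GRCm38.p6) are given because they are cut from the transcript that the H19 probes were named for. The place and strand of the H19 probes on that transcript were not given in the sources used here. The mature miRNAs were not measured. Capitals mark the seed, bases 2 to 8. The 5p and 3p strands come from chr7:142577112-142577133 and chr7:142577078-142577099, both on the minus strand, and have different seeds.

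mmu-miR-675-5p: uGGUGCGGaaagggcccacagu
mmu-miR-675-3p: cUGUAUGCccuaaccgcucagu

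Mhrt was lower on the TAC array than on the sham array at both times. Its processed signal was 18100 on the sham array and 11840 on the TAC array at 2 weeks, and 20140 and 9525 at 8 weeks. As log2 levels these were 6.45, 5.85, 6.51 and 5.26. The sham arrays stood close together, with a log2 ratio of 0.06 for 8 over 2 weeks, and both TAC arrays lay below both of them. The log2 ratio of TAC over sham was -0.61 at 2 weeks, which is 1.52-fold lower, and -1.25 at 8 weeks, which is 2.38-fold lower. Each is beyond the spot SD of 0.115. Between the TAC arrays the log2 ratio of 8 over 2 weeks was -0.58. At 8 weeks Mhrt was the only probe of the 6 past 2-fold in either direction, where 1.77% of all 55681 probes were past 2-fold lower and 1.89% past 2-fold higher. At 2 weeks 0 of the 6 were past 2-fold, where 1.0% of 55667 probes were lower and 1.89% higher. Between the sham arrays, where 1.49% of all probes were past 2-fold higher at 8 weeks and 0.853% lower, and between the TAC arrays, where 1.19% were higher and 1.65% lower, 0 of the 6 were past 2-fold. At 1.5-fold Mhrt was the only one of the 6 past the threshold at 2 weeks, against 2.62% of all probes that were lower. Of the probes measured on both arrays, 2.83% at 2 weeks and 0.487% at 8 weeks had a log2 ratio as low as that of Mhrt or lower.

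**Figure D1:**
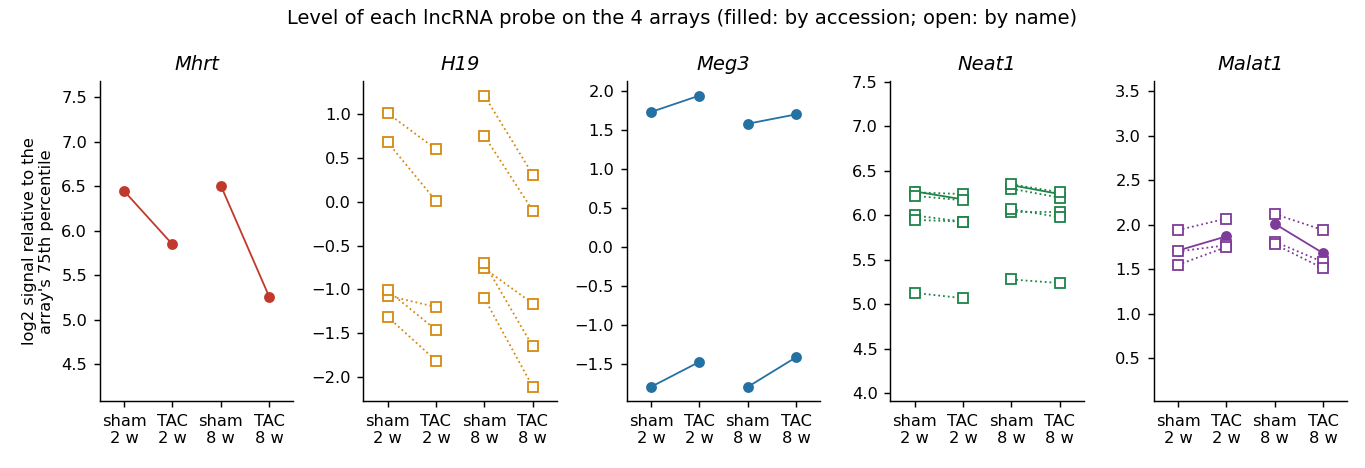
Level of each measured lncRNA probe on the 4 arrays (log2 processed signal relative to the array's 75th percentile, 1 pooled array per group, each panel with its own axis). Filled circles are probes matched by transcript and open squares probes matched by name, and lines join sham and TAC of the same time. Mhrt goes from 6.45 to 5.85 at 2 weeks and from 6.51 to 5.26 at 8 weeks, all 5 H19 probes slope down at both times, and Neat1 is nearly level.

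The myosin genes beside Mhrt did not move with it in size. Myh7, the slow myosin heavy chain that is re-expressed in the loaded heart, rose from a log2 level of 6.12 to 8.83 at 2 weeks and from 6.11 to 9.81 at 8 weeks, 6.55-fold and 12.9-fold. Myh6, the main adult myosin heavy chain of the mouse, had 2 probes. The brighter had a log2 ratio of -0.19 at both times, and the other of -0.36 at 2 weeks and -0.54 at 8 weeks. Mhrt therefore had a lower ratio than either Myh6 probe at both times, whereas Myh7 went in the opposite direction.

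**Figure D2:**
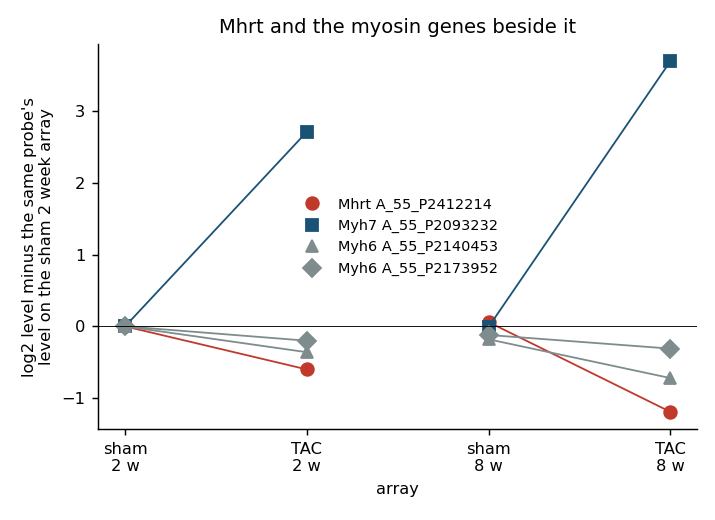
log2 level of Mhrt, Myh7 and both Myh6 probes on each array, minus the same probe's level on the sham array at 2 weeks (1 pooled array per group). Myh7 is raised by 2.71 and 3.69 over the sham array of the same time, while Mhrt is lowered by more than either Myh6 probe.

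Of the 8 genes listed as neighbours or partners of Mhrt, all were measured on the 4 arrays, and only Myh7 was past 2-fold. Smarca4, which encodes Brg1, differed by 0.03 on the log2 scale at 2 weeks and by 0.16 at 8 weeks. Its known chromatin partners were slightly lower at 8 weeks, with log2 ratios of -0.39 for Hdac9, a class II histone deacetylase, of -0.31 for Hdac2, a class I histone deacetylase, and of -0.38 for Parp1, a poly(ADP-ribose) polymerase. At 2 weeks these were -0.19, 0.05 and -0.19. Hdac2 was dim, at levels from -3.45 to -3.08, where the spot SD is 0.284. For Parp1 the sham arrays differed by 0.23. Pura and Purb, single-stranded nucleic acid binding proteins that repress Myh6, were at -0.04 and 0.08 at 2 weeks, then 0.10 each at 8 weeks. The median of the list was -0.00 at 2 weeks and -0.05 at 8 weeks, beside -0.02 and -0.04 over all measured probes.

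Most heart muscle markers were lower, by less than Mhrt, with 9 of 12 lower at 2 weeks and 10 of 12 at 8 weeks. Actn2, at 0.16 and 0.23, and Ttn, at 0.02 and 0.08, were higher at both times. The median log2 ratio of the 12 was -0.12 at 2 weeks and -0.18 at 8 weeks, and 0 of 12 were past 2-fold. Their summed signal, in which the brightest probes weigh most, was 9670 times the 75th percentile in sham and 8880 in TAC at 2 weeks. At 8 weeks it was 9170 and 8100. The markers that differed most were Ryr2, the calcium release channel, with a log2 ratio of -0.63 at 8 weeks, Pln, the inhibitor of the calcium pump, with -0.49, and Tnni3, cardiac troponin I, with -0.46. Each is closer to 0 than the -1.25 of Mhrt. In RNA from whole hearts, fewer cells of a type and less RNA per cell cannot be told apart. Of the genes known to rise in hypertrophy, 6 of 7 were past 2-fold higher at 2 weeks and 7 of 7 at 8 weeks. Acta1, skeletal actin, was 8.53-fold and 10.6-fold higher, and Postn, a matrix protein of activated fibroblasts, 4.90-fold and 7.59-fold.

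The genes with the profile most like Mhrt over the 4 arrays were Whrn, Ttll1 and Ppl. They were the nearest by Euclidean distance of centred log2 levels, at 0.0789, 0.0796 and 0.102, among 1546 probes of named genes measured on all 4 arrays with at least a similar range. Their log2 ratios were -0.65, -0.71 and -0.73 at 2 weeks and -1.17, -1.24 and -1.29 at 8 weeks, beside -0.61 and -1.25 for Mhrt.

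H19 was read here by the 5 probes that carried its name, and all 5 were lower on the TAC array at both times. Of the 29262 probes measured on all 4 arrays, 38.1% were lower at both times. The brightest probe, A_30_P01021588, had a processed signal of 415.7 in sham and 311.6 in TAC at 2 weeks, and of 513.0 and 307.0 at 8 weeks. Its log2 ratios were -0.41 and -0.91. A_30_P01025068 went from 330.4 to 207.2 and from 371.5 to 231.8, with log2 ratios of -0.67 and -0.85. A_30_P01028007 went from 102.7 to 74.9 and from 135.8 to 79.4, with log2 ratios of -0.45 and -0.94. On each of these 3 probes the 8-week sham array was the brightest of the 4, and both TAC arrays were dimmer than both sham arrays. A_30_P01028827 went from 83.1 to 58.8 and from 103.2 to 57.4, with log2 ratios of -0.50 and -1.01, and at 2.02-fold lower it was the only H19 probe past 2-fold, and only at 8 weeks. A_30_P01026972 differed least, with signals of 98.2 in sham and 89.9 in TAC at 2 weeks, 130.6 and 111.2 at 8 weeks, and log2 ratios of -0.12 and -0.40. On the scaled level its 8-week TAC array, at -1.16, was above its 2-week TAC array, at -1.20, and close to its 2-week sham array, at -1.07.

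Over the 5 H19 probes the log2 ratio of TAC over sham averaged -0.43 ± 0.20 (SD over 5 probes) at 2 weeks and -0.82 ± 0.24 at 8 weeks, which are 1.35-fold and 1.77-fold lower. The probes read the same RNA pools, so this SD is the disagreement between probes and not a spread over mice. The sham arrays themselves differed by 0.22 ± 0.10 (8 over 2 weeks, higher on 5 of 5 probes), and the TAC arrays by -0.17 ± 0.14. The difference between the TAC arrays was -0.07 with median scaling and 0.10 without scaling, so no direction is given. With all probes matched by name added, 2 of 19 were past 2-fold lower at 8 weeks, Mhrt and A_30_P01028827, beside 1.77% of all probes. At 2 weeks 0 of 19 were, beside 1.0% of all probes. Several of the 19 read the same gene, so they are not separate counts.

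**Figure D3:**
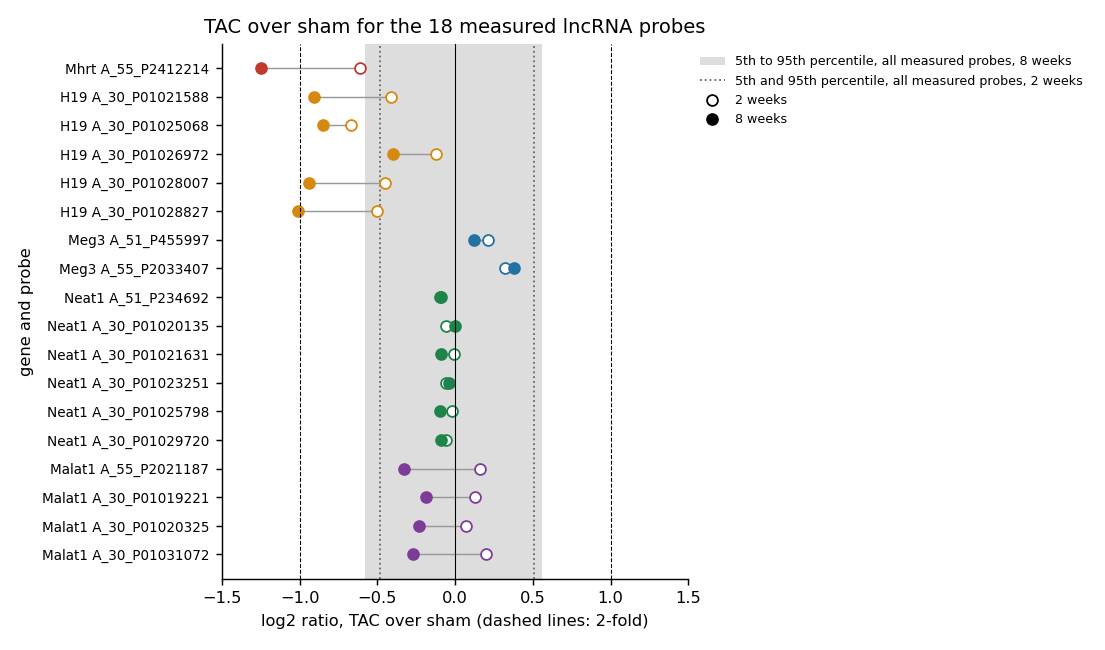
log2 ratio of TAC over sham for the 18 measured lncRNA probes at 2 weeks (open circles) and 8 weeks (filled circles), with 1 pooled array per group. The 5th and 95th percentiles of all probes measured on both arrays are dotted lines at 2 weeks (-0.48 and 0.51) and the edges of the grey band at 8 weeks (-0.58 and 0.56), and dashed lines mark 2-fold. Mhrt and 4 of the 5 H19 probes lie left of the band at 8 weeks, and the Meg3, Neat1 and Malat1 probes lie within it.

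Igf2, the imprinted growth factor gene that shares its control region with H19, was at 0.30 on the log2 scale at 2 weeks and at -0.16 at 8 weeks. It was dim, at levels from -2.52 to -2.13, where the spot SD is 0.284. Of 20 imprinted protein-coding genes on a fixed list, 15 were measured on both arrays at 2 weeks and 14 at 8 weeks, and 0 of these were past 2-fold at either time. Their median log2 ratio was 0.05 at 2 weeks and -0.04 at 8 weeks, with 7 of 15 and 8 of 14 lower. At 8 weeks Dlk1, expressed in fetal tissue, and Dio3, which inactivates thyroid hormone, were measured on the TAC array alone and past 2-fold higher there, with log2 differences of 1.10 and 1.22 in signal. Against the lowest signal well above background on the sham array they were at least 1.18-fold and 1.20-fold higher. Dio3 was also measured on both 2-week arrays, at levels of -4.04 in sham and -4.12 in TAC, close to its 8-week TAC level of -3.95. Only its 8-week sham level, -5.17, stood apart. Dlk1 and Dio3 were named after their values were seen. The 3 measured on all 4 arrays that differed most were Mest, Grb10 and Gatm. Mest, a hydrolase-like gene of growing tissue, was at 0.95 and 0.32. Grb10, an adaptor that restrains insulin signalling, was at 0.62 and 0.42. Gatm, an enzyme of creatine synthesis, was at 0.05 and 0.54, but it was dim too, at levels from -3.78 to -3.24. The genes nearest in profile to the brightest H19 probe were Hnmt, Bmper and Slc26a6, at distances of 0.0475, 0.0503 and 0.0656 among 3447 probes.

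Markers of other cell types also differed between TAC and sham. Fibroblast and matrix markers had a median log2 ratio of 0.74 at 2 weeks and 0.53 at 8 weeks, with 2 of 12 past 2-fold at each time. Their summed signal was 220 and 308 times the 75th percentile in sham and TAC at 2 weeks and 245 and 356 at 8 weeks. Such sums are weighted to the brightest probes. On the 2-week sham array these were Dcn among fibroblast markers, at a level of 7.16, and Egfl7 among endothelial markers, at 6.89. Col1a1, a fibrillar collagen, was 1.96-fold and 2.30-fold higher, and Fn1, fibronectin, 2.14-fold and 1.57-fold. Of the 12, 11 were higher at 2 weeks and 10 at 8 weeks. Tcf21 had log2 ratios of 0.07 and -0.55, and Dpt of -0.01 and -0.24. All 11 macrophage markers were higher at both times, with medians of 0.44 and 0.40, 0 past 2-fold, and summed signals of 66.3 and 86.4, then 68.3 and 89.1. The largest macrophage ratios were those of Cd14, Cd163 and C1qa. Cd14, the endotoxin co-receptor, was at 0.71 and 0.91, and C1qa, a complement subunit, at 0.26 and 0.56. Cd163, the haemoglobin scavenger receptor, was at 0.66 and 0.09. It was dim, at levels from -3.76 to -3.09, where the spot SD is 0.284. Endothelial markers had medians of 0.21 and -0.03 with summed signals of 212 and 259, then 217 and 203. Among them Cldn5, a tight junction protein, was at 0.90 and 0.01, Egfl7, a vessel matrix factor, at 0.42 and -0.14, and Vwf, a clotting factor, at -0.38 and 0.01. Markers of smooth muscle and pericytes had medians of 0.34 and 0.22 with summed signals of 108 and 130, then 111 and 130. Here Cnn1, calponin, was at 0.89 and 0.48, Des, desmin, at 0.34 and 0.54, and Pdgfrb, the pericyte growth factor receptor, at 0.50 and 0.12. Of these 8 markers 7 were higher at each time, and Acta2 was at -0.01 and -0.40. No defining marker of these 4 lists was below background on every array. Immediate early genes, which respond to handling of tissue as well as to load, had medians of 0.31 and 0.52, and Atf3, a stress-induced factor, was 3.67-fold, Fos 2.43-fold and Nr4a1, a nuclear receptor, 1.86-fold higher at 8 weeks. Atf3 also differed between the sham arrays, by 1.25 on the log2 scale. The part of cell makeup or handling in the lower values of Mhrt and H19 was not tested.

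Meg3, which lies at chr12:109540996-109571729 on the plus strand, 77659 bases from Dlk1, was slightly higher on the TAC arrays. The brighter probe, A_51_P455997, had a processed signal of 685.7 in sham and 789.4 in TAC at 2 weeks, and of 662.8 and 808.3 at 8 weeks. Its log2 ratios were 0.21 and 0.12. The dimmer, A_55_P2033407, had signals of 59.7 and 74.6, then 63.9 and 93.3, with log2 ratios of 0.32 and 0.38. On this probe both TAC arrays were above both sham arrays, by levels of -1.47 and -1.41 against -1.79 on each sham array, and on the brighter probe the 8-week TAC level of 1.70 lay below the 2-week sham level of 1.73. Both measured probes were higher at both times, as were 28.8% of the probes measured on all 4 arrays. Their mean was 0.27 at 2 weeks and 0.25 at 8 weeks, which are 1.20-fold and 1.19-fold higher, inside the band that holds the middle of all measured probes. The third probe, A_52_P196568, was well above background on none of the 4 arrays, with signals from 3.87 to 12.5, and gives no ratio. Of the other transcripts of the same imprinted region, Mirg, a noncoding host of miRNAs, had log2 ratios of 0.12 and 0.29. The coding genes Rtl1 and Dlk1, known from fetal tissue, were well above background on 0 and 1 of the 4 arrays. The genes nearest in profile to the brighter Meg3 probe, Slc35a3, Plcb4 and Cmtm7, had log2 ratios of 0.18 to 0.22 at 2 weeks and 0.10 to 0.13 at 8 weeks.

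Neat1 differed least of the 5 lncRNAs with measured probes. It lies at chr19:5824708-5845480 on the minus strand, with a short transcript of 3185 bases and a long one of 20771 bases, and which of the forms each probe reads was not given in the sources used here. The probe matched by transcript, A_51_P234692, had a processed signal of 15970 in sham and 14960 in TAC at 2 weeks, and of 17870 and 18730 at 8 weeks. Its log2 levels were 6.27, 6.18, 6.34 and 6.24, and its log2 ratios -0.09 and -0.10. The 5 probes that carried the name ranged in log2 ratio from -0.06 to -0.01 at 2 weeks and from -0.10 to 0.00 at 8 weeks. Over the 6 probes the mean was -0.05 ± 0.03 (SD over 6 probes) at 2 weeks and -0.07 ± 0.04 at 8 weeks, and over the alternative settings it ranged from -0.09 to -0.00 and from -0.09 to 0.10, so no direction is given. Every one of the 12 ratios is smaller in size than the spot SD of 0.115. The 8-week arrays were slightly brighter than the 2-week arrays, by 0.09 in sham and 0.07 in TAC. Ratios this small do not show that Neat1 was equal in the mice, whose spread was not measured.

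The proteins of the paraspeckle were nearly level too. All 20 listed genes were measured, 0 were past 2-fold at either time, and the median log2 ratio was -0.04 at both times, beside -0.02 and -0.04 over all measured probes. They ranged from -0.32 to 0.18 at 2 weeks, and the highest was 0.12 at 8 weeks. Among those that differed most were Rbmx, an RNA binding protein of splicing, at -0.32 and -0.17, and Rbm14, at -0.25 and -0.01. The genes nearest in profile to Neat1 were Gkap1, Cd164 and Gorasp2. They were found among 17837 probes of named genes with at least a similar range, so flatter probes were not searched.

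Malat1, at chr19:5795690-5802672 on the minus strand and 22035 bases from Neat1, is a single exon of 6983 bases. The probe matched by transcript, A_55_P2021187, had a processed signal of 674.6 in sham and 752.9 in TAC at 2 weeks and of 889.9 and 795.9 at 8 weeks. Its log2 levels were 1.71, 1.87, 2.01 and 1.68, so the 8-week sham array was the highest and the 8-week TAC array the lowest. The log2 ratio of TAC over sham was 0.16 at 2 weeks and -0.33 at 8 weeks. The 3 probes under the synonym NEAT2 had log2 ratios of 0.13, 0.07 and 0.20 at 2 weeks, against -0.19, -0.23 and -0.27 at 8 weeks. All 4 probes were thus higher at 2 weeks and lower at 8 weeks, as were 18.0% of the probes measured on all 4 arrays. The mean over the 4 probes was 0.14 ± 0.05 (SD over 4 probes) and -0.25 ± 0.06, and the sham arrays differed by 0.20 ± 0.08, which is larger than the 2-week difference. Without scaling the 8-week mean was -0.09, within the spot error. Both means lie inside the band of all measured probes, and the difference between the times was not tested.

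Of 18 listed splicing factors and other proteins of the nuclear speckle, all were measured and 0 were past 2-fold. Their median log2 ratio was -0.03 at 2 weeks and -0.04 at 8 weeks. The largest were Tra2b, a splicing regulator, at 0.12 and -0.44, Srrm2, a scaffold protein of speckles, at -0.16 and -0.36, and Srsf1, a splicing factor that Malat1 is known to bind, at -0.07 and -0.21. Tra2b was dim, at levels from -3.59 to -2.91, and differed by 0.67 between the sham arrays, more than after TAC. The genes nearest in profile to the Malat1 probe were Zfp65, Cog5 and Septin1, among 13515 probes.

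Miat lies at chr5:112213228-112228948 on the minus strand. No probe of it was found by transcript or by name, so its level is not analysed here. Of 5 splicing factors known to bind Miat, 4 were measured on all 4 arrays and 0 were past 2-fold. Their median log2 ratio was -0.08 at 2 weeks and -0.09 at 8 weeks. Qk, which regulates splicing in muscle, was at -0.00 and 0.19, Sf1, the branch point binding protein, at -0.08 and -0.02, Celf1 at -0.08 and -0.17, and Srsf1 as given above. Celf3 was well above background on 2 of the 4 arrays only, at levels from -4.49 to -3.88.

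**Figure D4:**
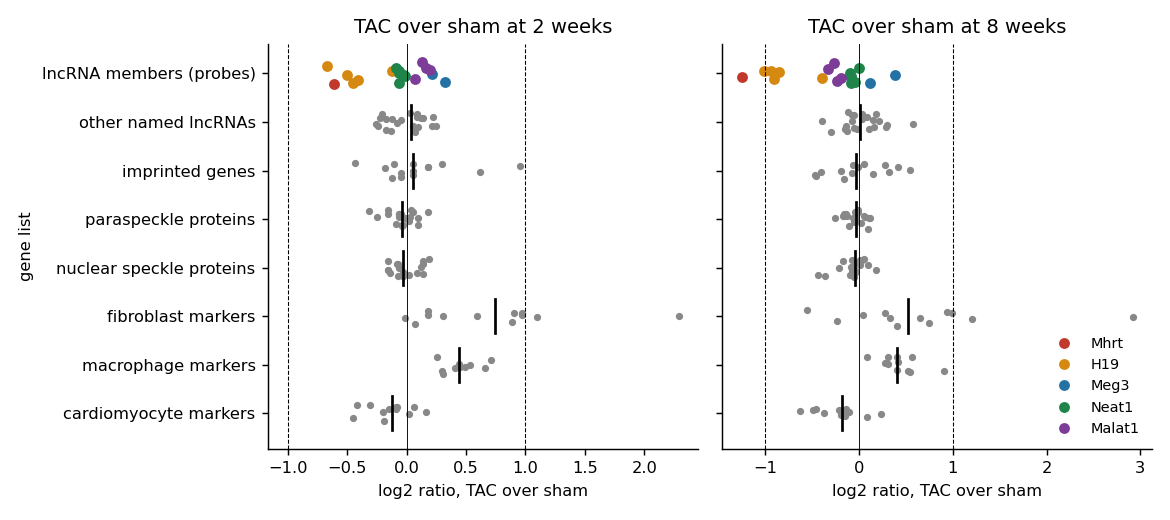
log2 ratio of TAC over sham for the 18 measured lncRNA probes (top row, coloured by gene) and for genes of fixed lists measured on all 4 arrays (grey, 1 probe per gene), at 2 weeks and 8 weeks. Black bars are list medians, dashed lines mark 2-fold, and vertical scatter within a row is for visibility only. At 2 weeks Mhrt and 4 of the 5 H19 probes lie left of every other named lncRNA measured on all 4 arrays, the lowest of which is at -0.26, and fibroblast and macrophage markers lie mostly right of 0.

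Other named lncRNAs had ratios close to those of all probes. Of 49 on the list, 30 had a probe and 22 were measured on both arrays at each time, with 0 of these past 2-fold. Their median log2 ratio was 0.04 at 2 weeks and 0.00 at 8 weeks, and they ranged from -0.26 to 0.25 and from -0.40 to 0.58. The 3 that differed most were Dancr, known from progenitor cells, at -0.08 and 0.58, Terc, the RNA of telomerase, at -0.22 and -0.40, and Gas5, a host of small nucleolar RNAs, at 0.03 and 0.30. Mhrt, at -0.61 and -1.25, and the mean of H19, at -0.43 and -0.82, were below the lowest of these 22 at each time. Outside the 22, Six3os1 was well above background on the 8-week sham array only, with levels of -5.99, -6.35, -1.12 and -6.20 in the order sham and TAC at 2 weeks, then sham and TAC at 8 weeks. The bound of at least 9.79-fold lower in TAC at 8 weeks rests on that sham array alone, and the sham arrays themselves differed by 4.87. Six3os1 was read by the brightest of its 3 probes by mean level, and it was named after its values were seen.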

How the data were processed

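The sources were 4 scanner files, 1 per array, and a table of the series. The authors made the deposited intensity values with Agilent Feature Extraction, of which the file headers give version 10.7.3.1 and the submitters' processing notes 9.1. The processed signal is an intensity after background subtraction and spatial detrending, not scaled between arrays. The series table holds the same intensity times a constant per array (4.258, 4.346, 4.001 and 3.518). The methods name GeneSpring for the authors' analysis, which was not used here.

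From these values, outlier spots were left out, log2 was taken, spots of a probe were averaged and the array's 75th percentile over probes was subtracted. Probes were named through transcript accessions in RefSeq and GENCODE tables, which matched 53.0% of them, and a gene of a list was read by its probe with the highest mean level. The array annotation is on mm9, and positions and sequences were taken from RefSeq on GRCm38.p6 by gene name, with no coordinate converted. A probe was past 2-fold when it also was well above background on the brighter array, while list counts and medians took genes measured on both arrays. With 1 array per condition no test was run. Counts of lncRNA probes past 2-fold were set beside the share over all probes. List medians are to be read beside those over all measured probes, -0.02 at 2 weeks and -0.04 at 8 weeks. List counts past 2-fold have no share over all probes under the same filter.

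Named were every member probe, all genes of the Mhrt and Miat lists, the 3 genes of each other reported list with the largest ratio among those measured on all 4 arrays, and the 3 nearest profiles per lncRNA, and 1 gene that this rule names is not reported here. The members and lists were chosen with earlier results of these data known. The alternatives were median, quantile and no scaling, the 75th percentile over probes measured on all arrays, normexp background correction of the spot median (offset 50), the deposited table, outlier spots kept, a 1.5-fold threshold, other filters on dim probes and the probes matched by name. The calling code was run on simulated arrays whose set differences were all well past 2-fold. That run checks the code only, not ratios near or under 2-fold, and not differences between pools. Python 3.11.15, pandas 2.3.3, numpy 2.4.6, R 4.3.3 and limma 3.58.1 were used.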

Additional observations from a re-analysis of the deposited data

Results flagged for a closer look

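Malat1 was marked because its effect pointed in opposite directions at the 2 times: all 4 of its probes were higher after TAC at 2 weeks, with a mean log2 ratio of 0.14, and lower at 8 weeks, with a mean of -0.25. The 8-week mean minus the 2-week mean is -0.39. With 1 pooled array per condition the difference was not tested, and 18.0% of the probes measured on all 4 arrays went the same ways. The sham arrays differed by 0.20 for this gene, and without scaling the 8-week mean was -0.09.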

How the results depend on the processing

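No paired analysis was possible because each condition has 1 array, and for the same reason no replicate could be left out. A log2 value was counted as moved past 0.155, the spot error of a log2 ratio over all measured probes with several spots. Of 462 recomputed values, 434 were not moved, 28 were, and 0 values past 2-fold changed sign. Of 140 recomputed ratios of the lncRNAs, 6 changed sign, all of them under 2-fold: Neat1 at 8 weeks, from -0.07 to 0.02 with median scaling and 0.10 without scaling, and, without scaling, Meg3 between the sham arrays, from -0.07 to 0.02, and H19, Meg3 and Malat1 between the TAC arrays, from -0.17, -0.09 and -0.19 to 0.10, 0.18 and 0.08. Leaving out the scaling moved 23 values, since the 8-week TAC array was brighter as a whole and the median log2 ratio of all measured probes at 8 weeks went from -0.04 to 0.13. Without scaling the 8-week ratio was -1.08 for Mhrt, -0.65 for H19, 0.42 for Meg3 and -0.09 for Malat1, the ratio between the TAC arrays was -0.31 for Mhrt and 0.34 for Neat1, and the 8-week medians were 0.17 for other named lncRNAs, 0.13 for imprinted genes, 0.13 for paraspeckle proteins, 0.12 for nuclear speckle proteins, 0.12 for Mhrt neighbours and partners, 0.08 for splicing factors that bind Miat, -0.01 for heart muscle, 2.82 for hypertrophy genes, 0.69 for fibroblasts, 0.14 for endothelium, 0.39 for smooth muscle and pericytes, 0.57 for macrophages and 0.68 for immediate early genes. With normexp background correction the 8-week ratio was -0.57 for H19 and the immediate early median 0.30, and the cause was not tested. At 2 weeks the count of member probes past the threshold and lower was 0, and it was 1 at 1.5-fold (Mhrt) and 1 with no filter on dim probes (the dim Meg3 probe). At 8 weeks it was 1, and 2 with the probes matched by name. Over the 7 alternatives in scaling, background and spot filter, Mhrt ranged from -0.65 to -0.56 at 2 weeks and from -1.27 to -1.08 at 8 weeks, and H19 from -0.47 to -0.29 and from -0.84 to -0.57. Of the 19 member probes, 1 (Meg3) was well above background on no array.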
